A study of Rattus norvegicus with 8 samples.

Results

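Molecular chaperones bind unfolded proteins, and folding enzymes speed up the slow steps of folding such as the pairing of cysteines. In the endoplasmic reticulum (ER), where a liver cell folds the plasma proteins it secretes, the HSP70 protein BiP works in cycles set by J-domain partners and nucleotide exchange factors, beside the HSP90 protein GRP94 and the disulfide isomerases. Small heat shock proteins instead hold unfolded proteins in the cytosol without using ATP. The genes described here are those of the authors' deposited table whose symbol begins with Hsp followed by a digit or by a, b, d, e or h, with Dnaj or with Pdia, together with Hyou1, Creld2 and Cryab. The rule works by name, but only on genes that had passed the significance thresholds of the table. There are 12 such genes among the 2462 of the authors' deposited table: 7 ER folding genes (Hspa5, Hyou1, Dnajb11, Dnajc3, Hsp90b1, Pdia4 and Creld2), 3 small heat shock genes (Cryab, Hspb1 and Hspb6) and 2 J-domain genes whose products are not ER lumen proteins (Dnajc22 and Dnajc27).

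The RNA came from livers of wild-type Fischer 344 rats, an inbred strain, aged 1 year. Of the 8 rats, 4 ate CSAA, a defined amino acid diet with enough choline that served as the healthy diet, and 4 ate CDAA, the version lacking choline, on which hepatocellular carcinoma arose. The labels give neither the sex of the rats nor whether tumour was cut out from the surrounding liver, so a CDAA library may hold both. The table gives the authors' comparison of the groups and no value per rat, so each fold change is given with the standard error (SE) of the authors' DESeq2 model and each level is the authors' group value in FPKM (fragments per kilobase of transcript, scaled to the library's total), which has no SD. Values written with ± are DESeq2 log2 fold changes, CDAA over CSAA, with their SE, and gene positions are the authors' Cufflinks loci in rn6.

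Every gene of the table had passed a threshold of 0.01 in each of the authors' 3 programs, DESeq2, edgeR and Cufflinks, so a listed gene changed by construction and a gene that is not listed has no value here. The relation between the raw and the adjusted p-values of the authors' deposited table shows that DESeq2 adjusted over 16076 genes, of which 15.3% are listed, and that 3993 genes (24.8%) had a DESeq2 adjusted p at or below the highest one listed. Of the listed genes 57.1% were higher and 42.9% lower in CDAA, which is 8.75% and 6.56% of the genes adjusted. In RefSeq 86 protein-coding rat genes have a symbol that fits the naming rule, and the 12 listed ones are 14.0% of them. This share counts genes whether or not they were tested, so its base is unlike that of the 15.3% of genes adjusted. Of the 27457 rat genes with a RefSeq promoter sequence, also tested or not, 6.48% are listed. By family, 1 of 13 Hspa genes, 1 of 3 Hsp90 genes, 2 of 7 Hspb genes, 1 of 14 Dnajb genes, 3 of 29 Dnajc genes and 1 of 6 Pdia genes were listed, and 0 of 4 Dnaja genes. The other 74, among them the ER genes Pdia3, Pdia6, Hspa13 and Dnajb9, have no value here, and which of them were tested is not known. The mean normalised count and mean CPM of the listed genes correspond to about 14100000 counted reads in a typical library.

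All 7 listed ER folding genes fell in CDAA, 2 of the 3 small heat shock genes rose, and the J-domain pair split. The authors' deposited table gave 9 of the 12 genes as lower and 3 as higher, and the sign was the same in all 3 programs for each of the 12. At least 2-fold, 5 of the 12 were lower, against 24.9% of listed genes, and 3 were higher, against 50.2%. With a threshold of 0.001 in all 3 programs, 5 of the 12 were lower, against 27.0% of listed genes, and 1 was higher, against 39.0%. The ER genes had a median log2 fold change of -1.04 and a median CSAA level of 164 FPKM. The small heat shock genes had a median of 1.96 and a CSAA level of 1.86 FPKM. Over all listed genes the median log2 fold change was 1.01, over those that were lower it was -1.08, and over those that were higher it was 1.65. The median CSAA level was 42.4 FPKM over the listed lower genes and 1.02 FPKM over the higher ones. Abundant fallers and scarce risers were thus a trait of the whole table, and the median ER fall was near that of all listed lower genes.

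**Figure D1:**
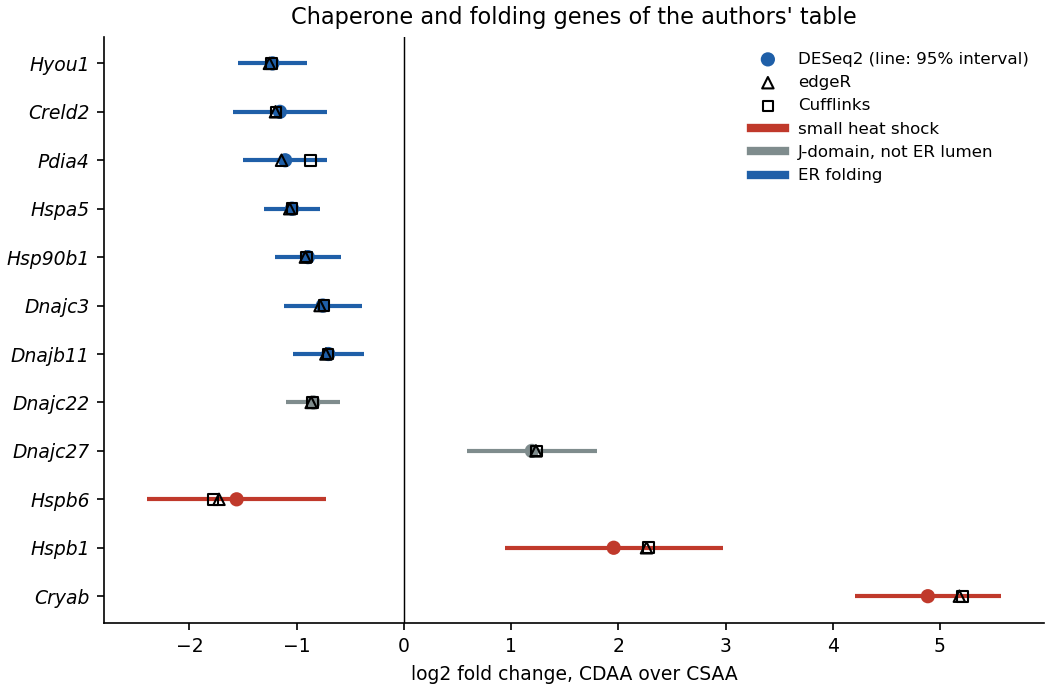
Log2 fold change of the 12 genes, CDAA over CSAA, from the authors' deposited table: filled circles are DESeq2 values with lines for the 95% interval (1.96 SE), triangles edgeR and squares Cufflinks, coloured by group. The 7 ER genes lie between -1.23 and -0.70, while the small heat shock genes run from -1.56 (Hspb6) to 4.89 (Cryab).

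Hspa5 encodes BiP, the HSP70 of the ER and the centre of its folding machinery. The gene (ENSRNOG00000018294) lies on chromosome 3 from 13838303 to 13842762 in build rn6. The authors' deposited table puts its group level at 477 FPKM with CSAA against 231 with CDAA, 48.5% of the former. It was the most abundant of the 12 genes on both diets, and ranked 80th by CSAA level among the 2462 listed. The DESeq2 log2 fold change in the authors' deposited table was -1.04 ± 0.13 (SE; adjusted p = 1.49e-13), or 2.06-fold lower with a 95% interval of 1.72 to 2.47.

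The listed partners that drive the BiP cycle fell as well. Hyou1 (ENSRNOG00000010944; chromosome 8, 48699768 to 48711910) encodes an HSP70-like protein also known as GRP170, which exchanges the nucleotide on BiP. Its level was 73.2 FPKM with CSAA and 31.2 with CDAA, and its log2 fold change of -1.23 ± 0.16 (SE; DESeq2 adjusted p = 3.30e-12) was the deepest fall of the 7 by the authors' deposited table. Slc37a4, the glucose-6-phosphate transporter gene 5028 bases away and not a chaperone gene, fell by a like amount (-1.22 ± 0.25, SE) by the authors' deposited table. Dnajb11 (ENSRNOG00000001803; chromosome 11, 81741296 to 81757813) encodes ERdj3, a J-domain protein that hands unfolded clients to BiP. At 44.9 FPKM with CSAA and 27.5 with CDAA, or -0.70 ± 0.17 (SE; DESeq2 adjusted p = 1.78e-04), it had the shallowest fall of the 7 by the authors' deposited table. Dnajc3 (ENSRNOG00000010352; chromosome 15, 104186852 to 104226434), whose J-domain product P58IPK was first known as an inhibitor of the eIF2alpha kinases, went from 164 FPKM to 97.9, a log2 change of -0.76 ± 0.19 (SE; DESeq2 adjusted p = 3.32e-04), as given in the authors' deposited table.

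The other 3 ER genes serve folding beside or after BiP. Hsp90b1 (ENSRNOG00000026963; chromosome 7, 27226568 to 27240533) encodes GRP94, the HSP90 of the ER. It went from 348 FPKM to 186, a log2 change of -0.89 ± 0.16 (SE; DESeq2 adjusted p = 1.32e-07), per the authors' deposited table. Pdia4 (ENSRNOG00000006228; chromosome 4, 77470635 to 77489535) encodes the protein disulfide isomerase ERp72, and went from 302 FPKM to 165, a log2 change of -1.11 ± 0.20 (SE; DESeq2 adjusted p = 3.87e-07), by the authors' deposited table. Its Cufflinks log2 ratio of -0.87 was smaller than the DESeq2 value by more than 1 SE, the only such gap among the 12 genes. Creld2 (ENSRNOG00000004659; chromosome 7, 129812788 to 129819634) encodes a small ER protein with a disulfide isomerase activity, and went from 34.0066 FPKM to 14.9, a log2 change of -1.16 ± 0.22 (SE; DESeq2 adjusted p = 2.78e-06), as given in the authors' deposited table.

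Taking the group levels of the 7 ER genes together, the summed FPKM of the authors' deposited table went from 1443 in CSAA to 753 in CDAA, 52.2% of the sufficient-diet level. Single genes kept between 42.6% (Hyou1) and 61.3% (Dnajb11) of their CSAA level. The 95% intervals of the 7 log2 fold changes in the authors' deposited table all covered the range from -1.03 to -0.90, so these intervals do not set any of the 7 apart from the others. The proportions between the 7 genes moved little: Hspa5 and Hsp90b1 made up 57.2% of the summed FPKM in CSAA and 55.4% in CDAA. No gene listed as lower had a log2 fold change above -0.599, so any ER gene that fell less has no value here. The likeness of the 7 falls is thus in part set by the selection. With Hspa5 as 100% in the authors' deposited table, Dnajc3 stood at 34.5% in CSAA and 42.4% in CDAA, and Hyou1 at 15.4% and 13.5%. The order of the 7 by level was the same on both diets: Hspa5, Hsp90b1, Pdia4, Dnajc3, Hyou1, Dnajb11 and Creld2.

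**Figure D2:**
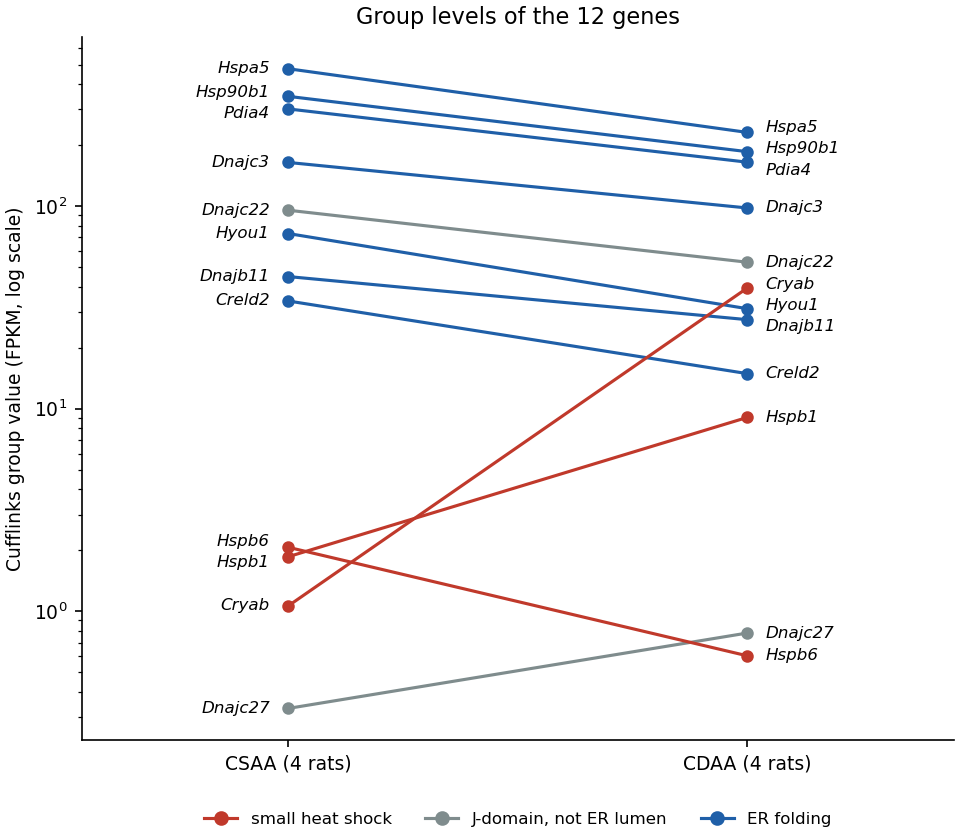
Group level of each of the 12 genes in CSAA (left) and CDAA (right), as the authors' Cufflinks FPKM on a log axis; each line joins 1 gene and no error can be given because the values pool 4 rats. The 7 ER lines run down nearly in parallel, and Cryab crosses from 1.06 to 39.4 FPKM, above Hyou1, Dnajb11 and Creld2 in CDAA.

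In bulk liver, fewer cells of a type and less RNA per cell cannot be told apart. Of 10 hepatocyte markers 2 were listed (20%, against 15.3% of all genes adjusted) and both fell in the authors' deposited table: Ttr (transthyretin), from 13443 FPKM to 6364, a log2 change of -1.08 ± 0.13 (SE), and the transcription factor gene Hnf4a, from 179 FPKM to 102, a log2 change of -0.76 ± 0.19 (SE). Ttr kept 47.3% and Hnf4a 56.8% of the CSAA level. The summed FPKM of all listed lower genes kept 38.2%, beside 52.2% for the ER genes. Such sums are weighted towards the most abundant transcripts. By median log2 fold change the sets were close, at -1.08 for all listed lower genes and -1.04 for the ER genes. The other 8 hepatocyte markers, among them albumin, have no value here. What part hepatocytes have in the fall of the ER genes was not tested.

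The promoters of the ER genes were examined for the ER stress element, a motif through which ATF6 and XBP1, transcription factors of the unfolded protein response, act with NF-Y. Its letters are CCAAT and, after 9 further bases, CCACG, and in its second form ATTGG and, after 1 further base, CCACG. Both strands of the RefSeq promoters (build GRCr8, 250 bases before to 50 after the gene start) were searched for exact matches, and no ER gene held both forms. Each exact match in an ER gene is shown with 20 bases on either side, written 5′ to 3′ in the direction of the gene. The 2 parts of the element are in capitals, and the Hspa5 promoter is printed whole.
Hspa5, chr3:38452766-38453065, + strand: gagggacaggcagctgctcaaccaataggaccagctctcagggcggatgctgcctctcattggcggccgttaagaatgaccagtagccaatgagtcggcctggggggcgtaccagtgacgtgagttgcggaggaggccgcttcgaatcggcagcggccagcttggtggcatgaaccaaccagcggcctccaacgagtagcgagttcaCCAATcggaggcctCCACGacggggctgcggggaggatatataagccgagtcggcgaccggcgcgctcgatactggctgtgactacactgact
Hsp90b1, chr7:23012431-23012489, - strand: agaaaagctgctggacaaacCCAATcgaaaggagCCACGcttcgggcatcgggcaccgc
Hsp90b1, chr7:23012327-23012385, - strand: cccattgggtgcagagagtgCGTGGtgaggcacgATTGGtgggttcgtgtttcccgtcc
Creld2, chr7:121789219-121789277, + strand: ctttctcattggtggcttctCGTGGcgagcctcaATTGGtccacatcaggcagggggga
Dnajc3, chr15:102432514-102432572, + strand: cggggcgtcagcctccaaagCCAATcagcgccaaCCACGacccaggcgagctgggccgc
Hyou1, second form, chr8:53602674-53602724, + strand: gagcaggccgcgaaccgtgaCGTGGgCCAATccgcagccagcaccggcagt
Hyou1, second form, chr8:53602774-53602824, + strand: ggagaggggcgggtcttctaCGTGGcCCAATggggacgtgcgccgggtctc
Dnajb11, second form, chr11:91672780-91672830, - strand: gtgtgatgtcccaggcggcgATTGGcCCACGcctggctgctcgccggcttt

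Exact elements stood in the promoters of 6 of the 7 ER genes. Hspa5, Creld2 and Dnajc3 each held 1 of the first form and Hsp90b1 held 2, one in each orientation, while Hyou1 held 2 and Dnajb11 1 of the second form. Across the 27457 rat genes with a promoter sequence, the first form was found in 21 (0.0765%) and the second in 17 (0.0619%). Counted from the gene's first base in RefSeq as position 1, the element of Hspa5 spanned positions -43 to -25. In Dnajb11 the element reached that first base, from -10 to 1. The Pdia4 promoter held no exact match, but with 1 mismatch allowed the first form lay from -101 to -83. This looser search found the first form in 431 genes (1.57%), with 26 lower and 21 higher ones listed in the authors' deposited table. It found the second form in 319 genes (1.16%), with 20 lower and 11 higher ones listed. Of the lower ones, 6 with the first form and 3 with the second were ER genes, chosen from the listed genes. A match describes the letters and does not show that a factor binds there.

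**Figure D3:**
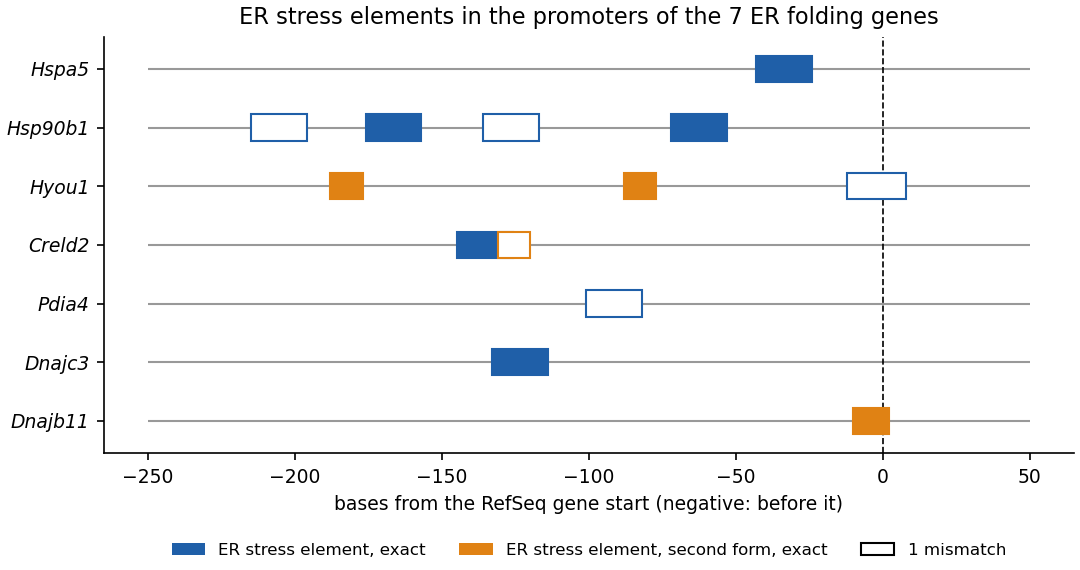
Position of ER stress elements in the promoters of the 7 ER folding genes, in bases from the RefSeq gene start (dashed line): filled boxes are exact matches of the first form (blue) and second form (orange), open boxes have 1 mismatch. Of the 7 genes, 6 have at least 1 filled box, and Pdia4 has only an open one.

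Read the other way round, from the motif to the expression values, 38 rat genes (0.138%) held an exact element of either form, and 10 of them are in the authors' deposited table, 9 lower and 1 higher in CDAA. The holders listed were 26.3% of the 38, and those listed as lower 23.7%. Of all 27457 genes with a promoter sequence 1778 (6.48%) are among the 2462 of the table and 2.80% are listed as lower. The holders' shares cannot be compared with these, because 6 of the 10 are the ER genes, which were chosen from the table. Their place in this count is fixed, and only the other 4 listed holders were not chosen in that way. Beside the 6 ER genes above, the lower ones were Ero1b, an ER oxidase that recharges the disulfide isomerases (-0.87 ± 0.20, SE), Ggct, a gamma-glutamylcyclotransferase (-1.14 ± 0.20), and Rcl1, a nucleolar RNA-processing gene (-0.91 ± 0.19), in the authors' deposited table. Ttll10, a tubulin ligase-like gene, rose from 0.113 FPKM to 3.02, a log2 change of 4.54 ± 0.37 (SE), per the authors' deposited table. The other 28 holders, among them the ER chaperone genes Calr and Canx, the transcription factor gene Xbp1 and the degradation gene Herpud1, are not listed. The table's Ggct and Rcl1 do not encode ER chaperones, so the motif and the class overlap without being the same set.

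The small heat shock genes made up a group of scarce transcripts that moved apart. Cryab encodes alphaB-crystallin, a small heat shock protein of lens and muscle that binds unfolded proteins and intermediate filaments (ENSRNOG00000010524; chromosome 8, 55178288 to 55182545). It stood at 1.06 FPKM with CSAA and at 39.4 with CDAA, a log2 fold change of 4.89 ± 0.35 (SE; DESeq2 adjusted p = 5.46e-42), or 29.6-fold with a 95% interval of 18.4 to 47.5, in the authors' deposited table. This was the 17th steepest rise of the 2462 listed genes, and the p-value of Cryab was the 29th smallest of the 16076 that the authors' DESeq2 adjusted. With edgeR (5.18) and Cufflinks (5.21) the rise in the authors' deposited table was larger by less than 1 SE. Hspa5 stood 449-fold above Cryab in CSAA and 5.87-fold above it in CDAA by the group FPKM of the authors' deposited table. Dixdc1, whose locus lies 15867 bases from Cryab, fell (-1.11 ± 0.34, SE) in that table.

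Hspb1 encodes HSP27, a small heat shock protein that also acts on actin filaments (ENSRNOG00000023546; chromosome 12, 23839398 to 23841049). It went from 1.86 FPKM to 9.05, a log2 change of 1.96 ± 0.52 (SE; DESeq2 adjusted p = 8.98e-04), by the authors' deposited table. The 95% interval of its rise, 1.92-fold to 7.85-fold, was wide, with a mean normalised count of 59.7 reads per library. Hspb6 encodes HSP20, a small heat shock protein best known from muscle (ENSRNOG00000020922; chromosome 1, 89008116 to 89010256). It fell from 2.07 FPKM to 0.602, a log2 change of -1.56 ± 0.43 (SE; DESeq2 adjusted p = 0.00142), as given in the authors' deposited table, on a mean normalised count of 24.7, the lowest of the 12 genes. In CSAA these 3 genes lay between 1.06 and 2.07 FPKM, and their 95% intervals in the authors' deposited table did not overlap pairwise. By the authors' deposited table Cryab went from 21.3% to 80.3% of the summed FPKM of the 3 genes, Hspb1 from 37.2% to 18.5%, and Hspb6 from 41.5% to 1.23%.

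**Figure D4:**
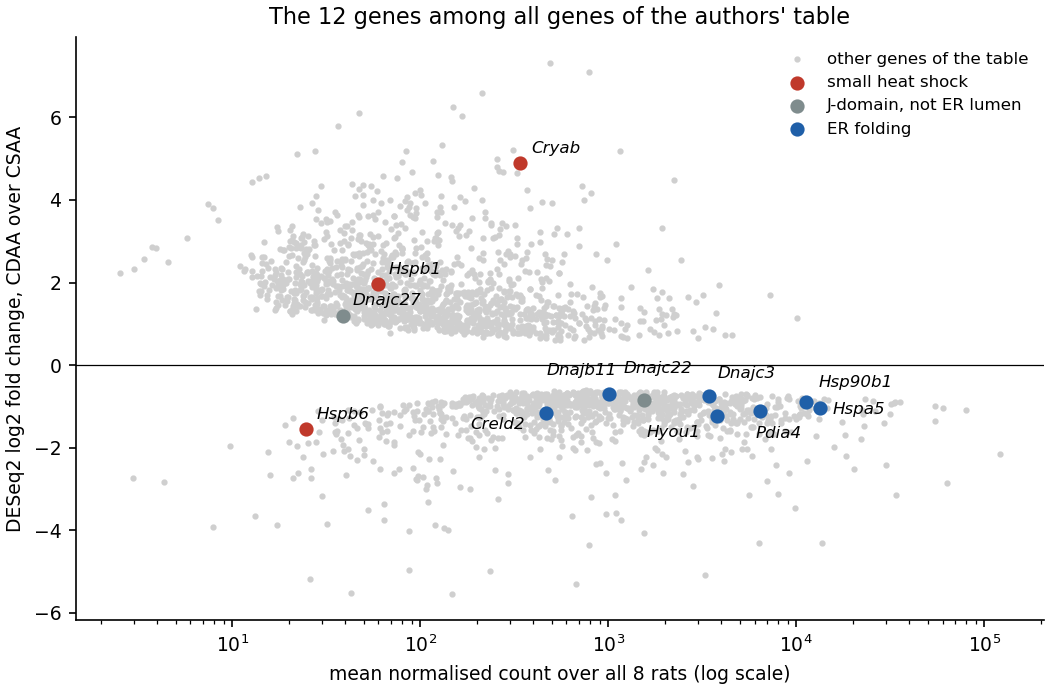
DESeq2 log2 fold change, CDAA over CSAA, against the mean normalised count over the 8 rats on a log axis, for the 2462 genes of the authors' deposited table (grey) with the 12 chaperone and folding genes coloured by group. The ER genes sit low and to the right, at mean counts from 465 (Creld2) to 13439 (Hspa5); Cryab stands high at 341, and Hspb6, Dnajc27 and Hspb1 have the lowest counts of the 12, from 24.7 to 59.7.

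Markers of other liver cell types are given here beside the rise of Cryab and Hspb1, and their counts stand against 15.3% of all genes adjusted that were listed and 8.75% that were listed as higher. Of 10 bile duct and progenitor markers 7 were listed, all higher, and the authors' deposited table sums them to 10.4 FPKM with CSAA and 74.1 with CDAA; Cftr (5.003 ± 0.39, SE) and Prom1 (4.23 ± 0.40) rose most. Of 12 stellate cell and myofibroblast markers 6 were listed, all higher, and the authors' deposited table sums them to 18.6 FPKM with CSAA and 100.3 with CDAA. Of that CDAA sum 50.9 FPKM came from Pdgfra, whose Cufflinks log2 ratio of 3.28 stood against 1.08 with DESeq2; Col1a1 rose most (3.32 ± 0.37, SE). For macrophages 5 of 10 were listed, all higher (23.9 and 147 FPKM in sum), for proliferation 7 of 10, all higher (5.16 and 23.7 FPKM), for T and B cells 1 of 10, near the share over all genes (Cd8a, 0.750 and 2.09 FPKM), and for endothelium 3 of 10, with 2 higher and 1 lower (27.6 and 23.0167 FPKM), per the authors' deposited table. No listed marker was at 0 in either group. The part of these cells in the rise of Cryab and Hspb1 was not tested.

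The J-domain genes outside the ER lumen moved in opposite directions and from different levels. Dnajc22 encodes a membrane protein with a J domain, whose Drosophila homologue wurst takes part in endocytosis (ENSRNOG00000053498; chromosome 7, 140781798 to 140786906). It fell from 95.4 FPKM to 52.8, a log2 change of -0.84 ± 0.13 (SE; DESeq2 adjusted p = 9.05e-10), per the authors' deposited table, a depth within the range of the ER genes. Its neighbour Spats2, whose locus begins 2080 bases beyond, rose by 1.34 ± 0.25 (SE), by the authors' deposited table. Dnajc27 encodes a Rab-like small GTPase that carries a J domain (ENSRNOG00000003988; chromosome 6, 28515024 to 28544790). It rose from 0.331 FPKM to 0.780, a log2 change of 1.19 ± 0.31 (SE; DESeq2 adjusted p = 7.07e-04), as given in the authors' deposited table, and stayed under 1 FPKM in both groups.

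Outside the small heat shock genes, few cytosolic chaperone genes were in the authors' deposited table. Of a list of 51 cytosolic HSP70, HSP90 and HSP40 genes and cochaperones 1 was listed (1.96%), against 15.3% of all genes adjusted. This was Fkbp4, an immunophilin that works with HSP90 on steroid receptors, which fell from 71.1 FPKM to 37.0, a log2 change of -0.93 ± 0.18 (SE), per the authors' deposited table. The main cytosolic chaperone genes Hspa8, Hspa1a, Hspa1b, Hsp90aa1, Hsp90ab1, Hsph1, Dnaja1 and Dnajb1 are not listed, and neither is any of 16 genes of the CCT chaperonin and prefoldin or of 4 heat shock transcription factors. A missing gene may have failed in only 1 of the 3 programs, so this gives no value for its change. Of 20 mitochondrial chaperones and proteases 1 was listed (5.0%, against 15.3% of all genes adjusted). This was Clpx, the unfoldase of the mitochondrial ClpXP protease, which fell from 123 FPKM to 40.6, a log2 change of -1.60 ± 0.13 (SE), by the authors' deposited table. The others, among them Hspd1, Hspe1, Hspa9, Trap1 and Lonp1, have no value here.

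The wider ER machinery was read from a longer list. Of a list of 51 ER chaperones and folding enzymes, which includes those 7, 13 were in the authors' deposited table (25.5%, against 15.3% of all genes adjusted), with 12 lower and 1 higher. The lower ones are 23.5% of the list, where 6.56% of the genes adjusted were listed as lower. These shares of the list cannot be compared with those of the genes adjusted, because the 7 were chosen from the listed genes. With the genes of the naming rule left out, 6 of 35 were listed (17.1%, near the 15.3% of all genes adjusted), 5 lower and 1 higher, with a median log2 fold change of -0.86. The 5 were Lman1, a cargo receptor for coagulation factors (-0.91 ± 0.13, SE), the secreted ER stress protein gene Manf (-0.89 ± 0.20), Ero1b, the BiP exchange factor gene Sil1 (-0.85 ± 0.27) and the J-domain translocon gene Sec63 (-0.79 ± 0.17) in the authors' deposited table. Sil1 and Hyou1, the exchange factor genes of BiP, were thus both lower, as were its 3 listed J-domain partners, Dnajb11, Dnajc3 and Sec63. Dnajb9, Dnajc1, Dnajc10 and Dnajc25, the other J-domain genes of the list of 51, have no value here. Ppic, a cyclophilin of the secretory pathway, was the exception and rose from 0.418 FPKM to 4.12, a log2 change of 3.09 ± 0.38 (SE), as given in the authors' deposited table.

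Genes for ER-associated degradation, which removes proteins that fail to fold, were listed for 5 of 25 (20%), all lower, where 15.3% of all genes adjusted were listed and 6.56% were listed as lower. Edem1, a lectin that marks misfolded glycoproteins, fell from 228 FPKM to 87.2, a log2 change of -1.30 ± 0.28 (SE), per the authors' deposited table. The adaptor Sel1l (-1.05 ± 0.19, SE), Edem3 (-0.97 ± 0.13), Selk, the older symbol of Selenok (-0.84 ± 0.16), and Ubxn4 (-0.73 ± 0.15) were the others in the authors' deposited table. For ER translocation and N-glycosylation 2 of 34 genes were listed (5.88%, below the 15.3% of all genes adjusted), both lower: Srp9 (-0.71 ± 0.17, SE) and Sec61b (-0.68 ± 0.21) in the authors' deposited table.

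Among 21 regulators of the unfolded protein response 4 were listed (19.0%), near the 15.3% of all genes adjusted, with 2 lower and 2 higher. The sensor genes Ern1, which encodes IRE1alpha, and Atf6 fell, from 19.3 to 10.5 FPKM (-0.89 ± 0.24, SE) and from 27.8 to 16.2 FPKM (-0.77 ± 0.16), per the authors' deposited table. Atf3, a stress-induced transcription factor gene, and Trib3, a pseudokinase gene induced by ATF4 and CHOP, rose from 0.729 to 6.24 FPKM (2.83 ± 0.38, SE) and from 4.49 to 16.9 FPKM (1.80 ± 0.32), per the authors' deposited table. Their levels in the table do not say which arm of the response was active, and Ddit3, Atf4, Xbp1 and Eif2ak3 are not listed.

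Of 12 genes for collagen chaperones and for prolyl or lysyl hydroxylases 3 were listed (25.0%), all higher, while 8.75% of all genes adjusted were listed as higher. The other members of that list have no value here. Serpinh1, which encodes the collagen chaperone HSP47, rose from 10.2 FPKM to 27.6, a log2 change of 1.44 ± 0.29 (SE), by the authors' deposited table. Plod2, a collagen lysyl hydroxylase gene, rose from 0.447 to 5.13 FPKM (3.40 ± 0.28, SE) and Crtap, a partner of prolyl 3-hydroxylase, from 0.704 to 1.87 FPKM (1.30 ± 0.29), per the authors' deposited table. HSP47 resides in the ER like BiP, so the listed ER chaperone genes did not all move one way.

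**Figure D5:**
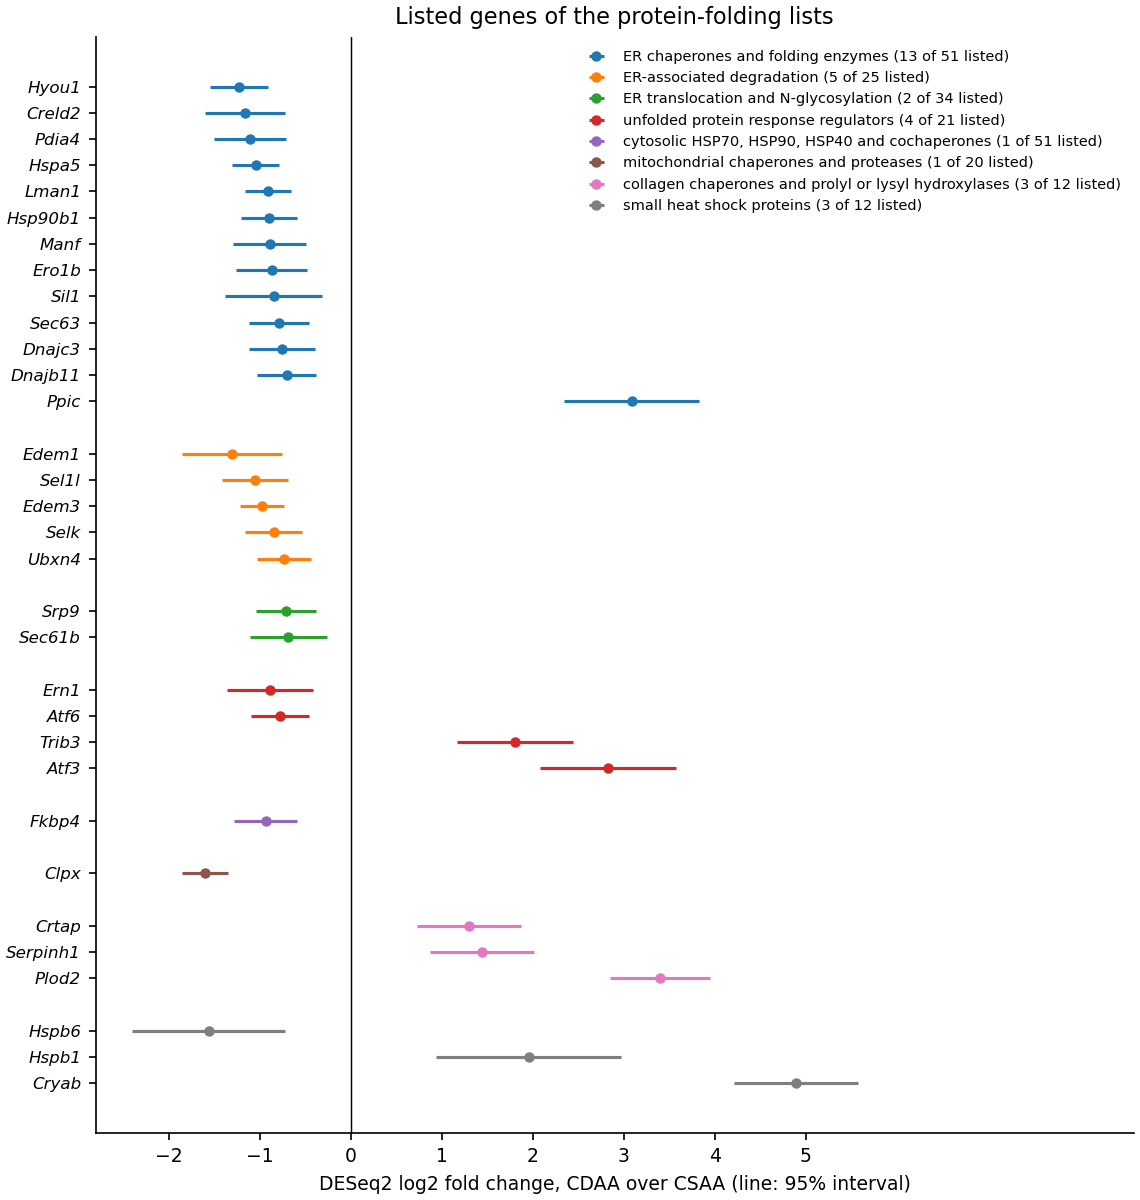
DESeq2 log2 fold change with its 95% interval (1.96 SE), CDAA over CSAA, for each gene of 8 protein-folding lists that is in the authors' deposited table, coloured by list with the number listed. All genes of the ER degradation and translocation lists and 12 of 13 ER chaperone genes lie below 0, and the 3 collagen genes above it.

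The promoters were also searched on both strands for the heat shock element, the motif of HSF1, written as 3 alternating GAA and TTC units with 2 bases between neighbours, starting and ending with GAA. None of the 10 chaperone and folding genes with a promoter sequence held an exact match in this window. Cryab and Dnajc22 had no promoter sequence and were not searched. Matches with a mismatch were not sought for this element, unlike for the ER stress element. The exact heat shock element was found in 218 of the 27457 genes (0.794%), of which 11 (5.05%) are in the authors' deposited table, 10 higher and 1 lower. That share is near the 6.48% of all genes with a promoter sequence that are in the table. Those listed as higher were 4.59% of the holders, near the 3.67% of all genes with a promoter sequence. Those listed as lower were 0.459% of the holders, against 2.80%. Serpinh1 and Plod2 were among the 10 higher ones, and the lower one was Sod1, the cytosolic superoxide dismutase gene, which fell from 1006 FPKM to 582, a log2 change of -0.79 ± 0.16 (SE), as given in the authors' deposited table.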

How the data were processed

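Liver RNA of 8 rats, 4 per diet, was taken from frozen tissue with Trizol and made into TruSeq libraries, per the labels' protocols. FastQC, TopHat2 and Cufflinks, beside DESeq2 and edgeR, were run by the authors on build rn6, per the submitters' processing notes; versions, counter, strand setting and annotation were not given in the sources used here. What is deposited is the authors' comparison: a mean normalised count (a signal), log2 fold changes with SE, a Wald score and p-values of DESeq2, log2 fold changes, mean log2 CPM and p-values of edgeR, and Cufflinks group values, with their log2 ratio, test score, p-values and q-values, per the file headers. The authors' group values were taken as FPKM, which Cufflinks usually writes; no header names the unit. The file holds no value per rat, so in place of a count test the authors' values are described, with intervals of 1.96 SE. The authors' p-values set the difference between the diets against the variation that their models estimated. The titles number the rats 1 to 4 in each group.

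The number of genes adjusted was the ratio of adjusted to raw p at the smallest p; with it, 2200 of the 2249 untied DESeq2 p-values of the authors gave a whole rank within 0.01. The authors' edgeR values gave 15041 genes in the same way. The 12 genes and the 17 lists (318 symbols, by textbook function) were chosen with earlier results of these data known. The shares of a list count its genes whether or not they were tested, unlike the shares of the genes adjusted. Named were all genes fitting the naming rule, all listed genes of the folding lists and up to 4 with the largest change in the translocation and cell type lists. Genes were matched by symbol or RefSeq synonym; RefSeq promoters of GRCr8 covered 10 of the 12 genes (not Cryab and Dnajc22). A planned look at protein C-termini and 1 gene of the degradation list, left out of its counts, are not reported here. No locus of the 12 genes covered another listed gene. Python 3.11.15 with pandas 2.3.3, numpy 2.4.6 and matplotlib 3.10.9 was used, and the rank and motif steps were tested on simulated data.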

Additional observations from a re-analysis of the deposited data

How the results depend on the processing

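The direction of all 12 genes was the same with the authors' DESeq2, edgeR and Cufflinks values, and 23 of 24 edgeR and Cufflinks folds lay within 1 SE of the DESeq2 fold; that of Pdia4 with Cufflinks (-0.87) did not. With a threshold of 0.001 in all 3 programs the count of the 12 genes went from 9 to 5 lower and from 3 to 1 higher, that of ER genes from 7 to 4 and that of rising small heat shock genes from 2 to 1, by the stricter rule's construction. At least 2-fold, 5 of the 12 genes and 4 ER genes were lower, as were 4 of the 12 lower genes of the ER chaperone list, 2 of the 5 of the degradation list and 0 of the 2 unfolded protein response regulators. The other 38 of 47 recomputed counts and medians stayed within 1.5 times, or 1 SE, of the first value, under edgeR or Cufflinks folds, minimum levels of 1 and 5 FPKM, single-gene loci, synonym matching and 1 mismatch in the motif. No paired analysis was possible because the table holds no value per rat; for the same reason no rat could be left out and no other normalisation or count filter was run. Genes with low counts, such as Hspb6, Dnajc27 and Hspb1, had to change by more to be listed, so their folds may be overstated.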
